A study of Mus musculus with 4 samples.

Results

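The transferrin receptor gene *Tfrc* and 9 genes of cellular iron sensing, storage and ferritin turnover were followed in RNA of sorted regulatory T (Treg) cells. The 10 genes were chosen by name for their roles and not for their values: *Tfrc* and *Slc11a2* (iron uptake), *Fth1* and *Ftl1* (storage), *Aco1*, *Ireb2* and *Fbxl5* (sensing), and *Ncoa4*, *Pcbp1* and *Pcbp2* (ferritin turnover and loading). They are 10 of the 47729 genes in the deposited table of read counts, and all 10 were among the 12536 genes with enough counts to be tested. The table holds 4 libraries from female C57BL/6 mice, 2 from *Tfrc* +/+ *Foxp3* YFP-Cre/+ mice (WT) and 2 that carried *Tfrc* fl/fl with *Foxp3* YFP-Cre/+ and that the labels call TfR1-deficient. The Cre allele was thus shared by both genotypes. It is driven by *Foxp3* and reported by YFP, and the cells were sorted as CD25+YFP+ Treg cells, from the spleen per the labels and from spleens and lymph nodes per a legend of the study. By a general statement of the study its mice were 6 to 8 weeks old, apart from a male genotype not among these libraries, and the number of mice per library is not given in the sources used here. *Foxp3* is X-linked and the females were heterozygous for the Cre allele, so each mouse also had Treg cells without Cre, which the YFP gate leaves out.

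Iron enters most cells as transferrin-bound iron through transferrin receptor 1, which *Tfrc* encodes, and is stored in ferritin, a shell built from heavy (FTH1) and light (FTL) chains. When cellular iron is scarce, the iron regulatory proteins IRP1 (gene *Aco1*) and IRP2 (gene *Ireb2*) bind RNA hairpins called iron-responsive elements (IREs). Binding in the 3′ UTR of *Tfrc* mRNA protects that mRNA from decay, whereas binding in the 5′ UTR of ferritin mRNAs blocks their translation, so a change in ferritin protein need not be seen in mRNA. When iron is plentiful, IRP1 takes up an iron-sulfur cluster and works as a cytosolic aconitase, and IRP2 is marked for degradation by a ubiquitin ligase whose iron-sensing subunit is FBXL5. T cells raise transferrin receptor 1 when they are activated.

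IREs are shown because this control is known to act on *Tfrc* through the level of its mRNA and on *Fth1* and *Ftl1* through translation. These are not a full list of the mRNAs under this control. The annotated UTRs of GENCODE vM1 on NCBIM37 (mm9) were searched on the transcribed strand for an unpaired C, 5 stem bases, the loop CAGTGN and 5 bases that pair with the stem, G with T pairs allowed. The 3′ UTR of *Tfrc* held 4 different matches and the 5′ UTRs of *Fth1* and *Ftl1* 1 each. The study states more IREs for the transferrin receptor 3′ UTR than matched here, so the pattern does not find every IRE. The capitals below mark the unpaired C and the 6-base loop, and each window of 30 bases is written 5′ to 3′ on the strand of the gene.
Tfrc 3′ UTR, chr16:32631304-32631333, plus strand: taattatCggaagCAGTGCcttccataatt
Tfrc 3′ UTR, chr16:32631683-32631712, plus strand: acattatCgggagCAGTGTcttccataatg
Tfrc 3′ UTR, chr16:32631748-32631777, plus strand: tctatatCggagaCAGTGAtctccatatgt
Tfrc 3′ UTR, chr16:32631795-32631824, plus strand: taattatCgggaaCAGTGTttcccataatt
Fth1 5′ UTR, chr19:10057221-10057250, plus strand: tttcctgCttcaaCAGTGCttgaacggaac
Ftl1 5′ UTR, chr7:52715149-52715178, minus strand: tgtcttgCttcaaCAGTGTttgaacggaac

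The *Fth1* and *Ftl1* windows have the same base at 27 of 30 positions. The pattern matched in 157 of the 20302 genes with an annotated UTR (0.773%), and *Tfrc* was the 1 gene with 4 or more different matches. Among 6 other mRNAs listed as IRE-bearing, 2 matched (*Alas2* and *Slc40a1*). A match is a description of the sequence, and the absence of one, as in *Slc11a2*, says only that these letters are not in the annotated UTRs.

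Library totals were between 10841939 and 17278448 counts. All 8 Treg and CD4 T cell markers were detected in every library, with summed levels of 4478 and 4175 CPM (counts scaled to library size with TMM factors) in WT replicates 1 and 2 and of 3601 and 3148 CPM in replicates 1 and 2 labelled TfR1-deficient. *Foxp3*, the Treg lineage factor, was at 194, 130, 122 and 114 CPM in the same order. Libraries stood apart across the genotypes: the sum of 20 macrophage genes, all of them detected, was 1004 and 87.3 CPM in WT and 62.1 and 3135 CPM under the TfR1-deficient label. *Csf1r*, the macrophage growth factor receptor, was at 124, 1.97, 4.96 and 371 CPM. A list of 12 proliferation genes summed to 1790, 821, 886 and 1763 CPM, and *Mki67*, a marker of cycling cells, was at 90.5, 28.7, 34.7 and 82.0 CPM. WT replicate 1 and replicate 2 labelled TfR1-deficient exceeded both other libraries in 19 of the 20 macrophage genes and in 12 of the 12 proliferation genes. The share of all genes that did so was not counted. In 68.7% of all genes tested these libraries differed from their replicates in the same direction, up or down. Each comparison of the 10 genes is therefore also given between the 2 libraries low in macrophage counts alone (WT replicate 2 and replicate 1 labelled TfR1-deficient) and between the 2 high ones, as values with no test. Counts of the 10 genes were at least 247 in any library, so counting error was at most 6.36% of a value, and the spread between replicates set the precision. The intervals given below are 95% intervals from the fit and rest on that spread.

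The first question was whether mRNA of any of the 10 genes differed between the genotypes. None of the 10 differed at an adjusted p under 0.05 in the quasi-likelihood test of edgeR, and this test called 0 of all 12536 genes (0%). At an unadjusted p under 0.05 together with a log2 fold change of at least 0.5 in either direction, 0 of the 10 passed, against 4.08% of all genes tested. At an unadjusted p under 0.05 alone, 1 of the 10 passed (*Slc11a2*), against 5.22% of all genes. DESeq2 called 0 of the 10 at an adjusted p under 0.05, against 0.284% of the genes it gave an adjusted p, and 0 at an unadjusted p under 0.05, against 2.74% of all genes with a count. The log2 fold changes (labelled TfR1-deficient over WT) were positive for 5 genes and negative for 5, with a median of 0.04, beside 0.01 over all genes tested. Their median size was 0.17, beside 0.21 over all genes.

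**Figure D1:**
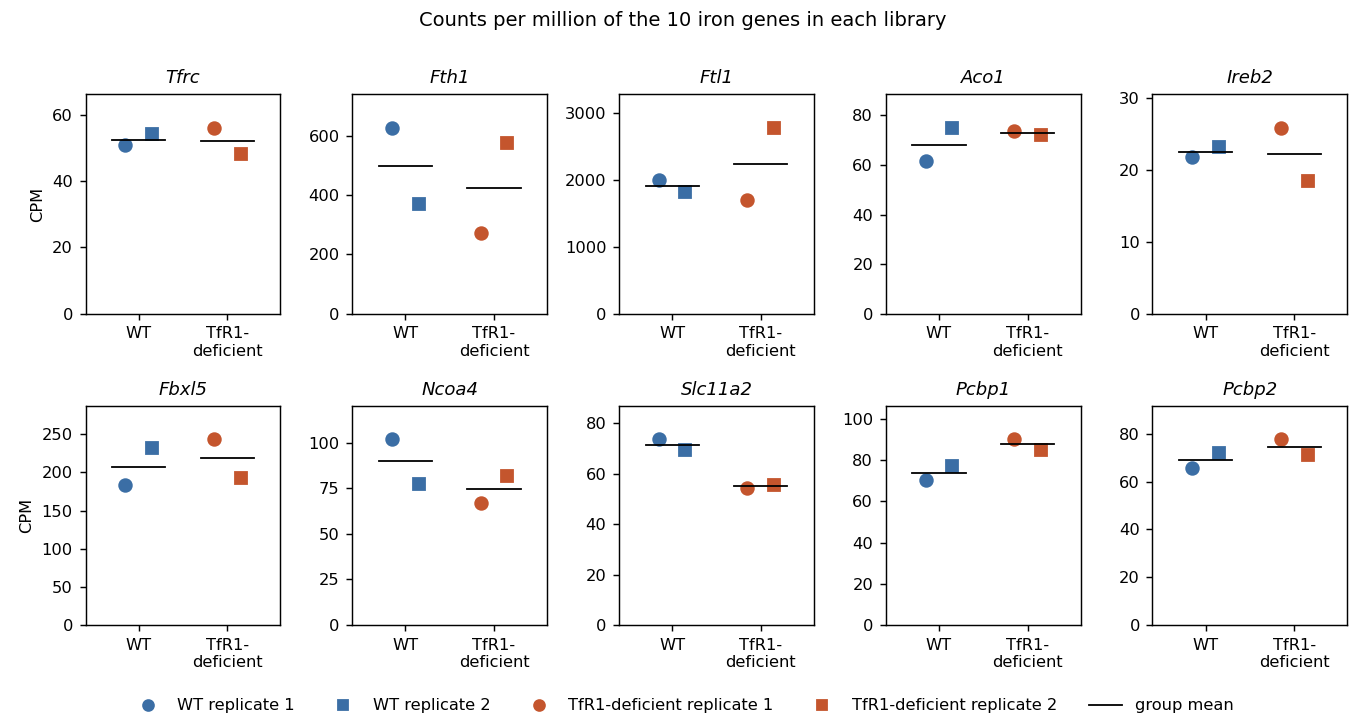
CPM of the 10 iron genes in each of the 4 libraries, 1 panel per gene with its own vertical axis from 0; points are single libraries (circles replicate 1, squares replicate 2) and horizontal lines are group means. Under the TfR1-deficient label both values of *Slc11a2* lay below, and both of *Pcbp1* above, the WT values, and the other 8 genes overlapped.

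*Tfrc* (chromosome 16, 32609006 to 32632880, plus strand, NCBIM37) is the gene whose floxed alleles define the genotype, so its count was looked at as a possible check of the labels. It had 620 and 577 counts in the WT libraries and 973 and 661 in the libraries labelled TfR1-deficient, which is 50.8, 54.1, 56.1 and 48.3 CPM. The WT values lie between those labelled TfR1-deficient. The fold was 0.995 with a 95% interval of 0.754 to 1.31 (adjusted p = 0.999, edgeR), so a decrease of the whole-gene count to below 0.754 of WT lies outside the interval. A count over the whole gene carries no exon information, and the exons between the loxP sites are not given in the sources used here, so a transcript that lacks them would still be counted. The labels are therefore not checked by this count, and every direction below rests on them. In the libraries low in macrophage counts the log2 difference of *Tfrc* was 0.05, and in the high ones it was -0.07. In RNA of sorted cells in bulk, fewer cells of a type and less RNA per cell cannot be told apart.

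*Slc11a2* (chromosome 15, 100218329 to 100255503, minus strand) encodes DMT1, which carries ferrous iron out of the endosome in which transferrin has released it. It was at 73.7 and 69.2 CPM in WT and at 54.2 and 55.6 CPM under the TfR1-deficient label. The groups did not overlap, as for 18.9% of all genes in this direction. The log2 fold change was -0.38 ± 0.14 (SE), with an interval of -0.73 to -0.03, which is the largest difference among the 10 genes and a fold of 0.769. Its unadjusted p was 0.039 in edgeR and 0.0916 in DESeq2, and its adjusted p of 0.911 in edgeR did not pass. The difference was -0.35 between the libraries low in macrophage counts and -0.41 between the high ones. Of the 8 Treg and CD4 T cell markers, 6 also lay lower without overlap under that label (18.9% of all genes did), and their part in the *Slc11a2* difference was not tested. *Slc11a2* shares 197 bp of exon with *Gm5475* on the opposite strand, which had 5, 0, 0 and 1 counts.

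*Fth1* (chromosome 19, 10057193 to 10059582, plus strand), the heavy ferritin chain with ferroxidase activity, was at 627.4 and 369 CPM in WT and at 273 and 576 CPM under the TfR1-deficient label. The 2 high values were those of WT replicate 1 and replicate 2 labelled TfR1-deficient, the libraries high in macrophage and proliferation genes, whose part in the *Fth1* level was not tested. Within a genotype the high library exceeded the low one by 1.70-fold in WT and by 2.11-fold in those labelled TfR1-deficient. The log2 fold change between genotypes was -0.23 ± 0.43 (SE, adjusted p = 0.977, edgeR), with the widest interval of the 10 genes, -1.32 to 0.86. Between the libraries low in macrophage counts *Fth1* differed by -0.43 and between the high ones by -0.12. Without replicate 2 labelled TfR1-deficient the fitted log2 fold change was -0.87, without replicate 1 of that label it was 0.21 and without WT replicate 1 it was 0.22, so the direction rests on which library is kept.

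*Ftl1* (chromosome 7, 52713314 to 52715254, minus strand), the light ferritin chain, was at 2004 and 1813 CPM in WT and at 1699 and 2778 CPM under the TfR1-deficient label. Replicate 2 labelled TfR1-deficient was the highest library, 1.64-fold above its replicate, whereas the WT libraries differed by 1.11-fold. The groups overlapped, with a log2 fold change of 0.23 ± 0.26 (SE, adjusted p = 0.955, edgeR). The difference was -0.09 between the libraries low in macrophage counts and 0.47 between the high ones, so it changed sign. Reads of processed copies could be assigned to either place. The rows that could be recognised by name as copies held few reads, with *Ftl2* at 0.424% of the *Ftl1* counts and *Fth-ps2* at 0.14% of the *Fth1* counts. Copies under other names were not looked at, and how reads that map to several places were counted is not given.

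Ratios within a library do not depend on how the libraries are scaled. The number of *Fth1* counts per *Tfrc* count, not corrected for gene length, was 12.4 and 6.83 in the WT libraries and 4.87 and 11.9 in those labelled TfR1-deficient. The log2 ratio of *Tfrc* to *Fth1* was -3.20 ± 0.61 (SD, n = 2) in WT and -2.93 ± 0.91 (SD, n = 2) under the TfR1-deficient label (exact permutation test, two-sided, p = 0.667). The ratio thus differed more within each genotype than between them. The heavy-to-light ferritin ratio was -1.68 and -2.30 (log2) in WT and -2.64 and -2.27 in those labelled TfR1-deficient, a difference of -0.47 (exact permutation test, two-sided, p = 0.667). This ratio was lower in the library labelled TfR1-deficient both between the libraries low in macrophage counts (-0.34) and between the high ones (-0.59), although the groups overlapped by the small gap between -2.30 and -2.27. With 2 libraries against 2 no permutation p can be below 0.33.

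*Aco1* (chromosome 4, 40090114 to 40146042, plus strand), which encodes IRP1, was at 61.5 and 75.0 CPM in WT and at 73.6 and 72.1 CPM under the TfR1-deficient label. The WT libraries enclosed the others, and the log2 fold change was 0.10 ± 0.16 (SE, adjusted p = 0.970, edgeR). *Ireb2* (chromosome 9, 54711562 to 54760341, plus strand), which encodes IRP2, was at 21.8, 23.2, 25.9 and 18.5 CPM in the same order. Here the libraries labelled TfR1-deficient enclosed the WT libraries, with a log2 fold change of -0.02 ± 0.25 (SE, adjusted p = 0.998, edgeR). *Fbxl5* (chromosome 5, 44135855 to 44212878, minus strand), the iron-sensing ligase subunit that targets IRP2, was at 183 and 231 CPM in WT and at 244 and 193 CPM under the TfR1-deficient label. Its log2 fold change was 0.08 ± 0.20 (SE, adjusted p = 0.987, edgeR), and it was 0.08 in both the low and the high pair of libraries. *Fbxl5* shares up to 99 bp of exon with *Bst1* on the opposite strand, which had 1 count in all. The 95% intervals of the log2 fold change were -0.31 to 0.50 for *Aco1*, -0.66 to 0.62 for *Ireb2* and -0.42 to 0.58 for *Fbxl5*, so differences in either direction within these intervals are not excluded. There were 2.82 and 3.24 *Aco1* counts per *Ireb2* count in WT and 2.85 and 3.91 in the libraries labelled TfR1-deficient, again overlapping (log2 difference 0.14, exact permutation test, two-sided, p = 0.667).

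*Ncoa4* (chromosome 14, 32973051 to 32993041, plus strand) encodes the receptor that delivers ferritin to autophagosomes, by which stored iron is released. It was at 102 and 77.4 CPM in WT and at 66.8 and 81.8 CPM under the TfR1-deficient label. The lower WT value was below the higher value under the other label, and the log2 fold change was -0.27 ± 0.20 (SE, adjusted p = 0.950, edgeR). The difference was negative between the libraries low in macrophage counts (-0.21) and between the high ones (-0.32), and it was -0.05 without WT replicate 1 and -0.13 without replicate 1 labelled TfR1-deficient. Like *Fth1*, *Ncoa4* was highest in WT replicate 1 and, under the TfR1-deficient label, higher in replicate 2.

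*Pcbp1* and *Pcbp2* encode poly(C)-binding proteins, RNA-binding proteins that also act as cytosolic iron chaperones and pass iron to ferritin. *Pcbp1* (chromosome 6, 86474493 to 86476165, minus strand) was at 70.4 and 77.1 CPM in WT and at 90.4 and 85.1 CPM under the TfR1-deficient label. Both values under the TfR1-deficient label lay above both WT values, as for 16.0% of all genes. The log2 fold change was 0.25 ± 0.14 (SE), with an interval of -0.10 to 0.61 (adjusted p = 0.923, edgeR), and it was 0.23 between the libraries low in macrophage counts and 0.27 between the high ones. *Pcbp2* (chromosome 15, 102301063 to 102330490, plus strand) was at 65.8 and 72.2 CPM in WT and at 77.9 and 71.1 CPM under the TfR1-deficient label. Its groups overlapped (log2 fold change 0.11 ± 0.14 SE, adjusted p = 0.956, edgeR), and its count is uncertain because it shares up to 1571 bp of exon with *Map3k12* on the opposite strand, which had 218, 205, 285 and 175 counts, and the strand setting of the counting is not given.

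**Figure D2:**
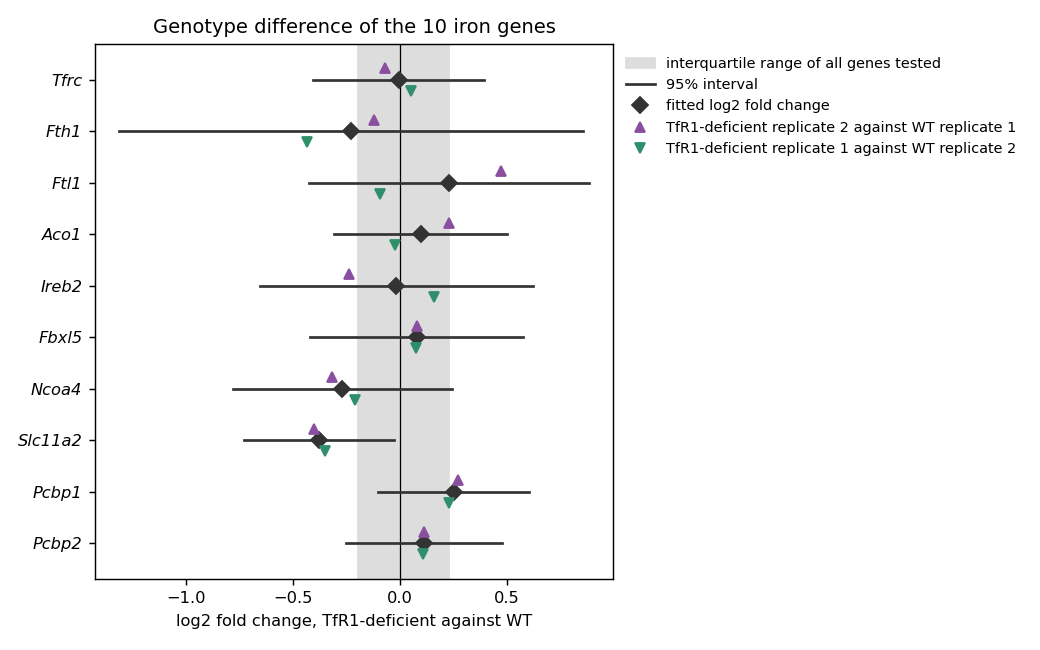
Log2 fold change (labelled TfR1-deficient over WT) of the 10 genes from edgeR with its 95% interval as a line, and the differences within the library pair low in macrophage counts and the pair high in them as separate points; the grey band is the interquartile range of all genes tested, -0.20 to 0.23. The interval of *Slc11a2* (-0.73 to -0.03) excludes 0 before adjustment over all genes and those of the other 9 genes include it.

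For the 8 genes whose groups overlapped, the replicates of at least 1 genotype differed by more than the genotypes did. With 2 libraries against 2 this follows from the overlap itself and is no separate result. In 10 of the 10 genes the difference of WT replicate 1 from WT replicate 2 had the same sign as that of replicate 2 from replicate 1 labelled TfR1-deficient, which held for 68.7% of all genes tested. The 4 genes higher in the former libraries were *Fth1* (log2 differences 0.76 in WT and 1.08 under the TfR1-deficient label), *Ftl1* (0.14 and 0.71), *Ncoa4* (0.40 and 0.29) and *Slc11a2* (0.09 and 0.04). The 6 lower ones were *Fbxl5* (-0.34 and -0.33), *Ireb2* (-0.09 and -0.49), *Aco1* (-0.29 and -0.03), *Tfrc* (-0.09 and -0.22), *Pcbp1* (-0.13 and -0.09) and *Pcbp2* (-0.13 and -0.13). The former libraries are also those with more macrophage and proliferation counts. The part of the macrophage and proliferation counts in these differences was not tested.

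**Figure D3:**
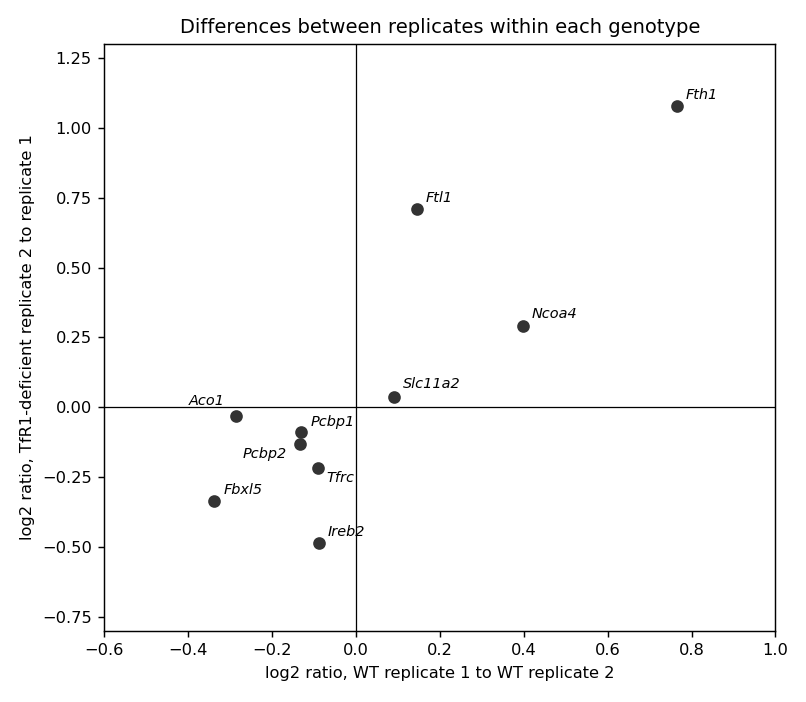
Log2 CPM differences between the 2 libraries of each genotype, WT replicate 1 minus 2 on the horizontal axis and, under the TfR1-deficient label, replicate 2 minus 1 on the vertical axis; each point is 1 of the 10 genes. *Fth1* lies far up and right (0.76 and 1.08), and all 10 points lie in the lower left or upper right quadrant.

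Levels were compared between genes as CPM per kilobase of exon (union of annotated exons). *Ftl1* stood first, with a mean over the 4 libraries of 1547 (range 1268 to 2073), followed by *Fth1* at 533 (316 to 725). The ferritin chains were well above the next gene, *Pcbp1*, at 48.2 (42.1 to 54.0). *Pcbp2* (25.0), *Fbxl5* (21.7) and *Ncoa4* (18.4) followed in that order with overlapping ranges between neighbours. *Aco1* (13.6), *Slc11a2* (9.94) and *Tfrc* (8.45, range 7.80 to 9.07) came next, and *Slc11a2* and *Tfrc* overlapped. *Ireb2* stood last at 3.84 (3.18 to 4.46), below every library of *Aco1*, so the IRP1 mRNA was the more abundant of the IRP mRNAs per length. Of the 9 neighbouring pairs, 3 had overlapping ranges. With the longest annotated transcript as the length, *Fbxl5* moved up to the third place at 50.2, since most of its exon union lies outside that transcript, and the order of the other genes among themselves was the same.

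**Figure D4:**
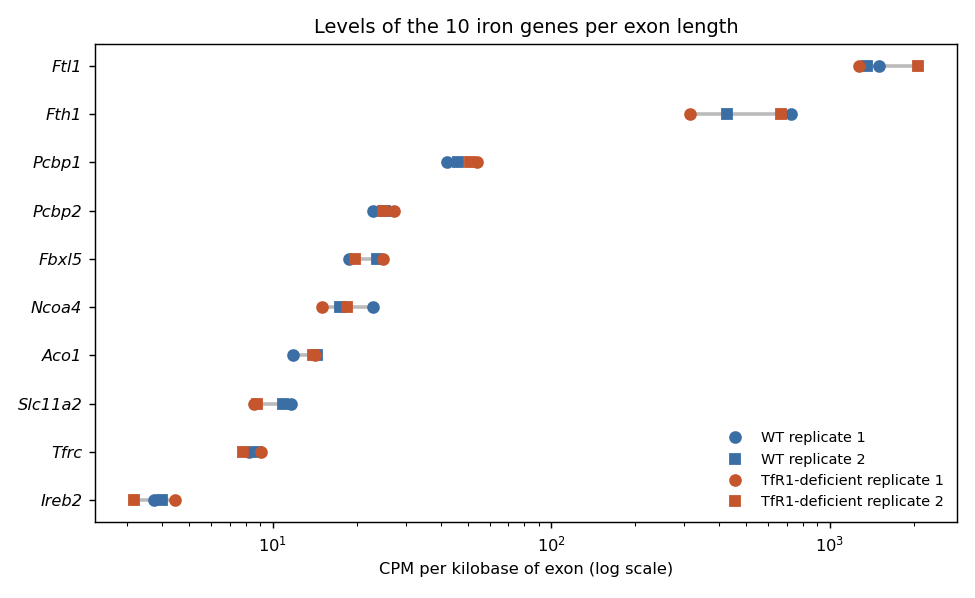
CPM per kilobase of exon of the 10 genes on a log axis, in the order of their mean; points are the 4 libraries and grey lines their range. The ferritin chains *Ftl1* (mean 1547) and *Fth1* (533) lie above the other 8 genes, which lie between 48.2 (*Pcbp1*) and 3.84 (*Ireb2*).

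Genes that work with these 10 were taken from 6 lists written by role, with 47 different genes, of which 34 were tested and 8 had no counts. Of the 34, 0 passed at an adjusted p under 0.05 in edgeR. At an unadjusted p under 0.05 with a log2 fold change of at least 0.5, 1 was higher and 2 were lower under the TfR1-deficient label (8.82%, beside 4.08% of all genes). DESeq2 called 0 at an adjusted p and, by the second rule, 1 (*Zc3h12a*), beside 2.38% of all genes with a count. The log2 fold change was positive for 22 and negative for 12, with a median of 0.15.

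The list of regulators of *Tfrc* mRNA had 4 genes, all 4 tested and all 4 with a negative log2 fold change (median -0.46), and in 3 of the 4 the groups did not overlap, as for 18.9% of all genes in this direction. The list joins mRNA decay factors with the transcription factor genes *Myc* and *Hif1a*, so a shared sign has no single meaning for *Tfrc* mRNA. *Myc* (-0.28 ± 0.14 SE) and *Hif1a* (-0.43 ± 0.20 SE) were lower without overlap (adjusted p = 0.911 for each, edgeR). *Zc3h12a* encodes Regnase-1, an endonuclease that cleaves *Tfrc* mRNA in its 3′ UTR. It was at 81.0 and 70.6 CPM in WT and at 45.6 and 51.0 CPM under the TfR1-deficient label, a log2 fold change of -0.65 ± 0.16 (SE, unadjusted p = 0.00833, adjusted p = 0.911, edgeR). The difference was -0.63 between the libraries low in macrophage counts and -0.67 between the high ones. *Zfp36*, which encodes the mRNA decay factor tristetraprolin, was at 798 and 518 CPM in WT and at 328 and 606 CPM under the TfR1-deficient label (log2 fold change -0.49 ± 0.36 SE, adjusted p = 0.949, edgeR), its groups overlapped, and the log2 fold change was -0.13 without WT replicate 1, -0.77 without WT replicate 2, -0.12 without replicate 1 and -1.01 without replicate 2 labelled TfR1-deficient.

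Of the transferrin cycle, which brings transferrin and its receptor through endosomes, 12 of 16 genes were tested, 9 with a positive and 3 with a negative log2 fold change (median 0.27), and 0 passed either rule. *Trf*, transferrin, was at 6.63, 0.0937, 0.519 and 34.9 CPM, and *Hfe*, which binds transferrin receptor 1, at 9.90, 0.0937, 0 and 38.5 CPM, in the order WT replicates 1 and 2 and replicates 1 and 2 labelled TfR1-deficient. The ferroportin gene *Slc40a1*, the iron exporter, followed at 208, 10.3, 11.7 and 548 CPM. All 3 were high in the libraries with many macrophage counts and low in the other ones, and their standard errors (2.04, 2.40 and 1.86 on the log2 scale) exceeded or approached the fold changes themselves (2.38, 1.93 and 1.36). Without the filter on low counts these 3 genes passed at an adjusted p under 0.05 in edgeR, as did 1.17% of all genes with a count. Of the 11 genes of iron export and systemic control, 3 were tested and 5 had no counts. *Cybrd1*, a ferric reductase, was at 0.982, 0.469, 2.71 and 0.657 CPM (log2 fold change 1.21 ± 0.89 SE).

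Of the partners of ferritin, 7 of 8 genes were tested, 5 with a positive and 2 with a negative log2 fold change (median 0.06). *Atg9a*, an autophagy membrane protein that takes part in ferritin turnover, was at 19.1 and 17.5 CPM in WT and at 12.9 and 10.9 CPM under the TfR1-deficient label (log2 fold change -0.62 ± 0.25 SE, unadjusted p = 0.0499, adjusted p = 0.911, edgeR). *Pcbp3* had a log2 fold change of 0.29 ± 0.30 (SE). The core of the ligase that carries FBXL5 (*Skp1*, *Cul1* and *Rbx1*) overlapped between the groups in all 3 genes, with -0.16 ± 0.20 (SE) for *Skp1* and 0.14 ± 0.16 (SE) for *Rbx1*. Among the 6 other mRNAs listed for an IRE, 4 were positive and 2 negative, and the median of 0.68 is the midpoint of widely separate values, 0.01 for *Pfn2* and 1.36 for *Slc40a1*. *Cdc42bpa*, which encodes a kinase of the cytoskeleton, was at 0.900 and 0.844 CPM in WT and at 2.71 and 1.90 CPM under the TfR1-deficient label (log2 fold change 1.39 ± 0.53 SE, unadjusted p = 0.0451, adjusted p = 0.911, edgeR), at low counts. *Alas2*, the erythroid enzyme that starts heme synthesis, was at 0.246, 4.41, 1.27 and 12.5 CPM, and the sum of the 8 erythroid markers in the table, *Alas2* among them, was 27.7, 158, 62.8 and 459 CPM in the same libraries.

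**Figure D5:**
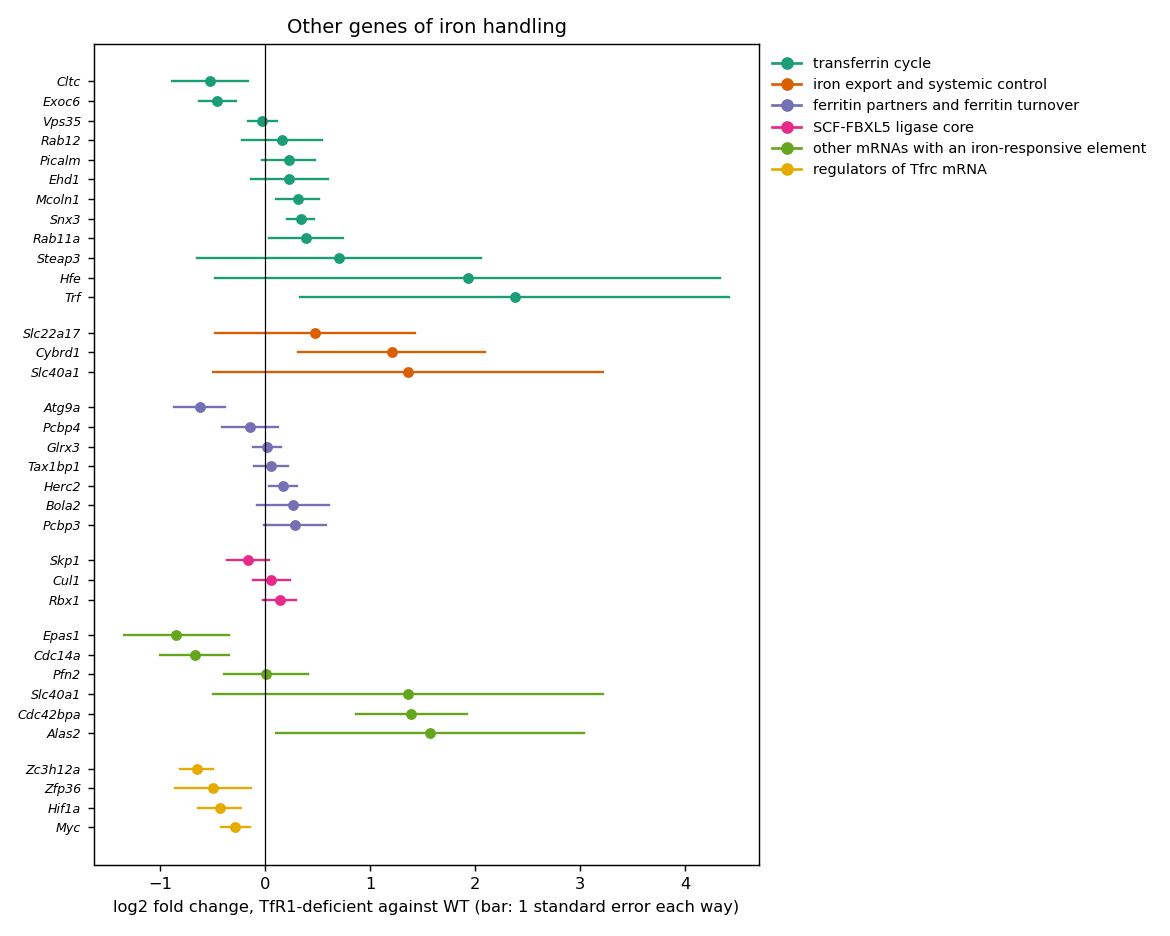
Log2 fold change (labelled TfR1-deficient over WT, edgeR) of each tested gene of the 6 lists, coloured by list and ordered by fold change within it; lines are 1 standard error each way, and *Slc40a1* appears in both lists that hold it. All 4 regulators of *Tfrc* mRNA lie below 0, with *Zc3h12a* at -0.65, and the lines of *Trf*, *Hfe* and *Slc40a1* are the longest in their lists.

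The genes whose log2 CPM was most like that of *Tfrc* over the 4 libraries, among 7113 genes that varied at least as much, were *Tpt1*, *Tox*, *Fam193a*, *Mrpl52* and *4930402H24Rik* (Pearson's r 0.99996 for *Tpt1* and 0.9997 for *4930402H24Rik*, the fifth), with *Tpt1* at 378, 424, 452 and 345 CPM in the order used above. For *Fth1*, among 454 such genes, they were *Bcat1* (r = 0.999), *Tk1* (0.997), *Gnpda2* (0.997), *Cenpm* (0.995) and *Sgol1* (0.994), with *Bcat1* at 28.7, 15.7, 11.6 and 26.0 CPM. These are descriptions over 4 points, and 53 genes reached an r over 0.99 with *Tfrc* and 9 with *Fth1*.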

How the data were processed

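RNA of sorted Treg cells was sequenced in 4 libraries, 2 per genotype, prepared with a NEBNext kit for single cells and low RNA input. The deposited values are raw read counts for each Ensembl gene, as whole numbers. The submitters' processing notes list Trim Galore 0.6.7, STAR 2.7.9a, featureCounts and mm10, while the methods of the study name mm9. Strand setting, treatment of multi-mapping reads and annotation release are not given in the sources used here. Symbols, lengths, coordinates and UTRs came from GENCODE vM1 on NCBIM37 (mm9) for 32799 of 47729 identifiers. The counting may have used a later annotation, so lengths may differ from those counted over. RefSeq names of GRCm38.p6 served to match older symbols. *Trf* matched 2 identifiers, of which the first was used.

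The 12536 genes kept by filterByExpr entered edgeR 4.0.16 (R 4.3.3), with TMM factors, a model of genotype alone and the quasi-likelihood F test, and p-values were adjusted by Benjamini-Hochberg over all of them. Standard errors were derived as the log2 fold change over the root of the F statistic. CPM used TMM factors, and log2 CPM a prior count of 2. The script was tested on simulated counts. DESeq2 1.42.0, other scalings and filters, a replicate block, and each library left out in turn were alternatives. The 2 libraries of a genotype are biological replicates per a legend of the study, and they differed beyond counting noise (chi-square per degree of freedom 20.7 in WT and 32.1 under the TfR1-deficient label).

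The 10 genes, the lists and the naming rule were set with earlier results of these data known. Of the lists, 1 gene is not reported here and was left out of the list counts. The rule took the 10 genes, *Foxp3*, *Csf1r*, *Mki67*, the genes of the pathway lists called under either rule, the 2 largest log2 fold changes per list, and the 5 genes most like *Tfrc* and *Fth1* with a mean of at least 10 CPM and at least the spread of that gene. *Myc* and *Hif1a* were named besides, to complete the list of regulators of *Tfrc* mRNA. Further marker lists gave summed levels, in the order WT replicates 1 and 2 and replicates 1 and 2 labelled TfR1-deficient, of 1295, 1577, 1275 and 1108 CPM for 6 B cell genes, 63.8, 66.2, 54.8 and 58.0 CPM for 6 CD8 T and NK cell genes, and 2.37, 1.12, 0.634 and 6.35 CPM for 7 dendritic cell and neutrophil genes, of which *S100a8*, *S100a9* and *Ly6g* had no counts.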

Additional observations from a re-analysis of the deposited data

How the results depend on the processing

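None of the 10 genes passed at an adjusted p under 0.05 in any alternative, the replicate block included (0 of 10), and edgeR and DESeq2 alike. At an unadjusted p under 0.05 with a change of at least 0.5, 0 of the 10 passed in every alternative that kept all libraries. A fit with a library left out has 1 library in a genotype, so its calls by this rule are not given. *Slc11a2*, *Pcbp1*, *Pcbp2* and *Ncoa4* kept their direction in every alternative. For *Slc11a2* and *Pcbp1* the groups did not overlap. No library pair, and at the same scaling no left-out library, could therefore give them another sign. The log2 fold change of *Tfrc* (-0.01) was 0.0043 in DESeq2, 0.0059 with its size factors, 0.030 by total counts, 0.0045 without a count filter, 0.013 with at least 10 counts in every library, 0.052 in the library pair low in macrophage counts, and -0.12 to 0.094 with a library left out. That of *Ireb2* was 0.017 by total counts, 0.16 in the low pair and -0.28 to 0.20 with a library left out. The pair low in macrophage counts also turned *Ftl1* (-0.094), *Aco1* (-0.026), *Alas2* (-1.80) and the ratio of *Aco1* to *Ireb2* (-0.19), and the high pair turned *Cybrd1* (-0.58). With a library left out, ranges were -0.87 to 0.22 for *Fth1*, -0.17 to 0.54 for *Ftl1*, -0.031 to 0.25 for *Aco1*, -0.10 to 0.26 for *Fbxl5*, -0.86 to 4.75 for *Alas2*, -0.15 to 1.87 for *Cybrd1*, -9.08 to 7.58 for *Hfe*, -0.38 to 0.033 for *Skp1*, -3.22 to 4.79 for *Slc40a1*, -2.68 to 7.45 for *Trf*, -0.38 to 0.91 for the log2 ratio of *Tfrc* to *Fth1*, -0.78 to -0.16 for *Fth1* to *Ftl1* and -0.087 to 0.37 for *Aco1* to *Ireb2*. Of the other iron genes, 3 passed at an adjusted p without a count filter (*Trf*, *Hfe* and *Slc40a1*), where 262 of 22368 genes did. The second rule called 3 of them in the fit reported, 1 in DESeq2 and 6 without a count filter. It called 2 with DESeq2's size factors, total counts, at least 10 counts in every library or the replicate block. Where the neighbours in the order of levels overlapped, 3 pairs became 4 with the longest transcript as length. Libraries were not paired by replicate number in the fit reported, and deviations of same-numbered libraries correlated at -0.61. With crossed pairs, an alternative added after seeing the data, as were the values of single pairs for ratios and listed genes, 0 of the 10 genes and 5 of the other iron genes passed at an adjusted p, and 8 by the second rule, beside 439 and 1115 of all 12536 genes. Over all genes the second rule called 511 (4.08%) in the fit reported, 211 (1.68%) with the replicate block and 1095 (4.90%) without a count filter. Its share was 2.38% in DESeq2, 4.03% with DESeq2's size factors, 4.01% by total counts and 4.44% with at least 10 counts in every library. The cause of these changes was not tested.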
